A study of Mus musculus with 60 samples.

Results

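The hypothalamus of tumor-bearing mice was compared between mid-dark and mid-light. The samples were all those labelled as hypothalamus from tumor-bearing mice, 5 collected at mid-dark and 5 at mid-light, which is 10 of the 60 samples of the series. Every one of the 770 genes of the panel entered the comparison, and neither the samples nor the genes were chosen by their values.

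All animals were female Balb/C mice, 13 weeks old and individually housed. The tumor-bearing mice had received 67NR cells (from a mouse mammary carcinoma that does not metastasize) in an inguinal mammary gland on each side, and controls had received the culture medium alone (vehicle). Tissue was taken on day 25 after injection at zeitgeber time (ZT, hours after lights on) 19, in the middle of the dark phase, or at ZT 7, in the middle of the light phase, after perfusion with saline, so that little blood remained. Hypothalamus, hippocampus and brain stem were dissected from the same brains, and RNA was run on a nanoString nCounter panel of mouse neuroinflammation genes, a method that counts barcoded probes on each transcript without amplification. The tumor-bearing mice at mid-dark were mice 3, 7, 11, 19 and 23, and those at mid-light were mice 1, 5, 9, 13 and 29. One mouse gave 1 hypothalamus sample, so mice are the replicates. Of the vehicle-injected mice, 3 gave a hypothalamus sample analysed here for mid-dark and 4 for mid-light.

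Mice are nocturnal, so mid-dark falls in their active phase and mid-light in their rest phase. The hypothalamus holds the suprachiasmatic nucleus, the central circadian pacemaker, beside nuclei that govern feeding, temperature, stress hormones and sleep. Transcripts that follow the time of day there come from the clock itself, from neuronal activity, from hormones and temperature that cycle across the day, and from glia, whose myelin genes are known to follow sleep and waking. The panel was built for neuroinflammation and holds 1 of 17 listed clock genes, Timeless, so the clock itself could not be read. The level of Timeless was 6.82 ± 0.15 on the log2 scale at mid-dark and 6.81 ± 0.12 at mid-light (SD, n = 5 mice each), and its difference was 0.01 with a 95% interval of -0.19 to 0.22.

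The values are log2 expression values, quantile normalized by the authors over all samples, so each sample has the same spread of values and a difference of 1 is a doubling. The 10 samples resembled each other closely, with mean correlations to the other 9 of 0.985 to 0.99. Neuronal Rbfox3 was at 10.75 to 11.08. The glutamate transporter Slc17a6, typical of hypothalamic neurons, was at 13.01 to 13.29, against 7.63 to 10.06 in hippocampus and 12.46 to 13.04 in brain stem. Dlx1, of GABAergic forebrain neurons, was at 7.98 to 9.04 in hypothalamus and 2.70 to 5.87 in brain stem. Slc17a7, the transporter of cortical and hippocampal neurons, ranged from 4.85 to 8.94 in these hypothalamus samples and from 12.73 to 13.29 in hippocampus. Choroid plexus Ttr was at 4.33 to 5.34, against up to 14.58 in hippocampus, and the T cell and neutrophil markers Cd3e and Ly6g did not exceed 4.41. Of the 10 neuropeptide genes of hypothalamic nuclei that were looked for, none was found among the genes of the panel.

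In all, 8 genes differed between the phases at a Benjamini-Hochberg adjusted limma p under 0.05, which is 1.04% of the 770 genes. Lower at mid-dark were Egr1, an activity-induced transcription factor, the myelin genes Opalin and Pllp, and the stress sensor Gadd45g. Higher at mid-dark were Cldn5, the tight junction claudin of brain endothelium, Lair1, an inhibitory collagen receptor of immune cells, Irf3, the transcription factor that starts type I interferon production, and Nwd1, a NACHT and WD repeat protein. The differences ran from 0.32 to 0.59 for the genes that were higher and from -1.09 to -0.46 for those that were lower. When the fit held only the 10 tumor-bearing samples, without the vehicle mice that otherwise add to the estimate of the spread, 5 genes passed, and Egr1, Nwd1 and Cldn5 were the ones lost.

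Most differences across the panel were small, with a median size of 0.08, and 4 genes differed by more than 1. Opalin and Egr1 were among these 4. The rest had a mean log2 value under 5, such as Cd8a, with means of 1.53 at mid-dark and 2.60 at mid-light. Of the 770 genes, 405 were higher and 365 lower at mid-dark, and the median difference was 0.01. Quantile normalization gives every sample the same distribution. A near-even split and a median near 0 were therefore largely set by it and do not show that the phases were alike. An ordinary, unadjusted p under 0.05 was reached by 71 genes (9.22%), and limma's unadjusted p by 39 genes that were higher at mid-dark (5.06%) and 36 that were lower (4.68%). The 5 values of each phase did not overlap for 8 genes that were higher at mid-dark (1.04%) and 11 that were lower (1.43%), and all 8 genes past adjustment were among these 19.

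**Figure D1:**
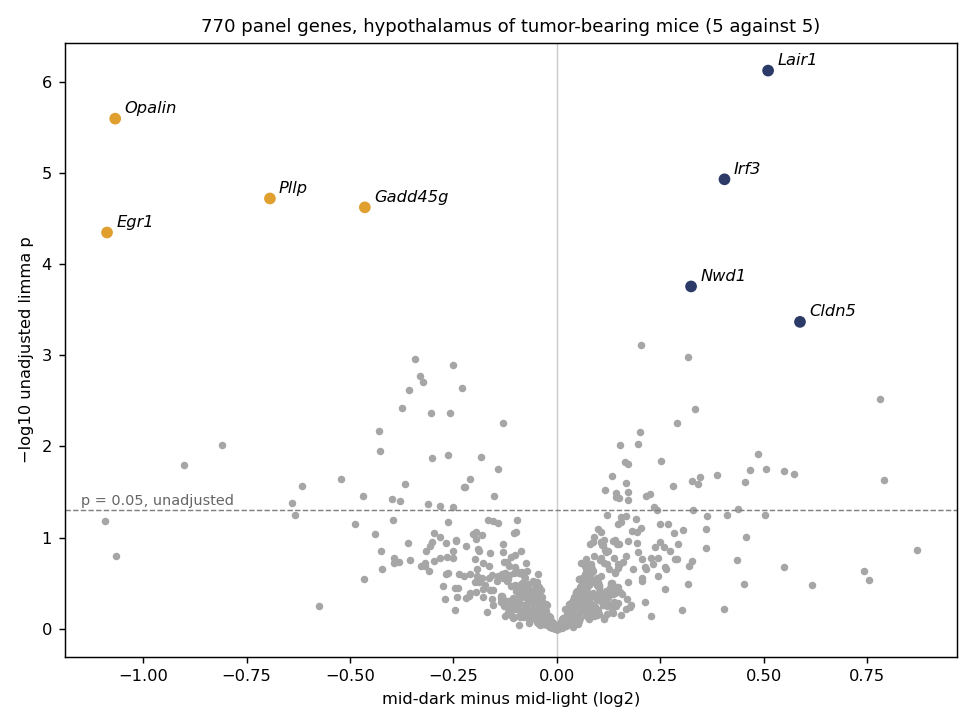
Each point is 1 of the 770 panel genes in the hypothalamus of tumor-bearing mice. The horizontal axis is the mid-dark minus mid-light difference (log2), the vertical axis -log10 of the unadjusted limma p value, and the dashed line marks its threshold of 0.05. The 8 named genes passed Benjamini-Hochberg adjustment, 4 on each side of 0.

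Opalin, a membrane glycoprotein made by mature oligodendrocytes, had 8.51, 8.56, 8.34, 8.39 and 8.56 at mid-dark in mice 3, 7, 11, 19 and 23, and 9.85, 9.70, 9.29, 9.43 and 9.43 at mid-light in mice 1, 5, 9, 13 and 29. Every mid-dark mouse was below every mid-light mouse, with a gap wider than the range within either phase. The difference was -1.07 (standard error 0.15, 95% interval -1.38 to -0.76, limma adjusted p = 0.000979), which puts the mid-light level 2.1-fold above the mid-dark level.

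Pllp, plasmolipin, a proteolipid of the myelin membrane, had 7.85, 7.93, 7.77, 7.71 and 7.68 at mid-dark, against 8.58, 8.78, 8.13, 8.47 and 8.46 at mid-light, in the same order of mice. The phases did not overlap, and mouse 9 was the lowest of the mid-light mice for both Opalin and Pllp. The difference was -0.69 (standard error 0.11, limma adjusted p = 0.00367), or 1.62-fold.

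These were the 2 genes past adjustment among the 28 measured myelin and oligodendrocyte genes. Their upstream sequences are shown because they fell together, followed by that of Gadd45g, which alone among the promoters searched of the genes past adjustment held the E-box that clock transcription factors bind. Each run is the 250 bases before the transcription start on the gene's own strand, from RefSeq on GRCm38.p6, and the capitals mark the motifs searched on both strands. In Opalin (chr19:41077114-41077363, minus strand) they mark ACAAAG, a SOX half-site, in Pllp (chr8:94696243-94696492, minus strand) GGGCGG, a GC box, and in Gadd45g (chr13:51846425-51846674, plus strand) CACGTG, the E-box.
Opalin: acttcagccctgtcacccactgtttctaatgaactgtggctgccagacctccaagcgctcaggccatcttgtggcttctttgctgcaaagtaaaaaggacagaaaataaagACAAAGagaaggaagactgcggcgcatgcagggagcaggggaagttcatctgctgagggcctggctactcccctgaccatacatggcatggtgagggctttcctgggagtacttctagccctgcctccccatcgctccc
Pllp: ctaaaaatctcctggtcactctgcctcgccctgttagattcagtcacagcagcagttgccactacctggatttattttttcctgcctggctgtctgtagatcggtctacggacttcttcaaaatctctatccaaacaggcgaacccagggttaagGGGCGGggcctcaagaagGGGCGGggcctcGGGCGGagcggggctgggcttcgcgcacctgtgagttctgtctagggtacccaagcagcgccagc
Gadd45g: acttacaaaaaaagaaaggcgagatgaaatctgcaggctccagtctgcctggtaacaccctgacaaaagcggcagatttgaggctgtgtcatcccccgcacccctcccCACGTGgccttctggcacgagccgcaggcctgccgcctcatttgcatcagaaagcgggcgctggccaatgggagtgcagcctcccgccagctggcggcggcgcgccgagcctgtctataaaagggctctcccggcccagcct

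Opalin and Pllp shared none of the motifs searched. Windows of the same length were searched for 7 of the 8 genes and for all 32851 promoters of the table. Egr1 had no entry there, so its promoter was not searched. CACGTG was in 6.02% of all windows and in 1 of the 7 (Gadd45g), ACAAAG in 16.5% and in 1 (Opalin), and GGGCGG in 32.7% and in 3 (Irf3, Pllp and Cldn5). The D-box TTATGTAA was in 0.819% of all windows, the ROR and REV-ERB half-site AGGTCA in 14% and the cAMP response element TGACGTCA in 1.55%, and none of these letters was in the 7 windows. No motif overlapped another. A match of letters is a description and shows no binding.

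Most of the other myelin genes were also lower, by smaller values. Of the 28 genes measured, 23 had a lower mean at mid-dark, against 365 of all 770 panel genes. The list median was -0.10 against 0.01 over all panel genes, and the list median in vehicle-injected mice was 0.03. In tumor-bearing mice 5 genes of the list were lower and 1 higher at limma's unadjusted p under 0.05, against 4.68% and 5.06% of all panel genes. The 3 lower genes beside Opalin and Pllp encode myelin proteins. Mag, the myelin-associated glycoprotein, differed by -0.43 (limma adjusted p = 0.297), Mog, at the outer myelin surface, by -0.37 (adjusted p = 0.376) and Cnp, a phosphodiesterase of non-compact myelin, by -0.21 (adjusted p = 0.37), and none passed adjustment.

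Mag was at 8.98 to 9.48 at mid-dark and 9.41 to 10.03 at mid-light, so its phases overlapped in part. Erbb3, the neuregulin receptor, went the other way, at 7.72 to 7.94 at mid-dark and 7.35 to 7.86 at mid-light, with a difference of 0.29 (limma adjusted p = 0.186). Sox10, the transcription factor of the oligodendrocyte lineage, differed by 0.24 with a 95% interval that reached 0. The myelin protein genes Mobp and Mal had differences of 0.00. In bulk tissue, fewer cells of a type and less RNA per cell cannot be told apart. The mean log2 level of the 28 genes was 9.28 to 9.58 in the mid-dark mice and 9.44 to 9.75 in the mid-light mice, and the part that the amount of white matter in a dissection had in these values was not tested.

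**Figure D2:**
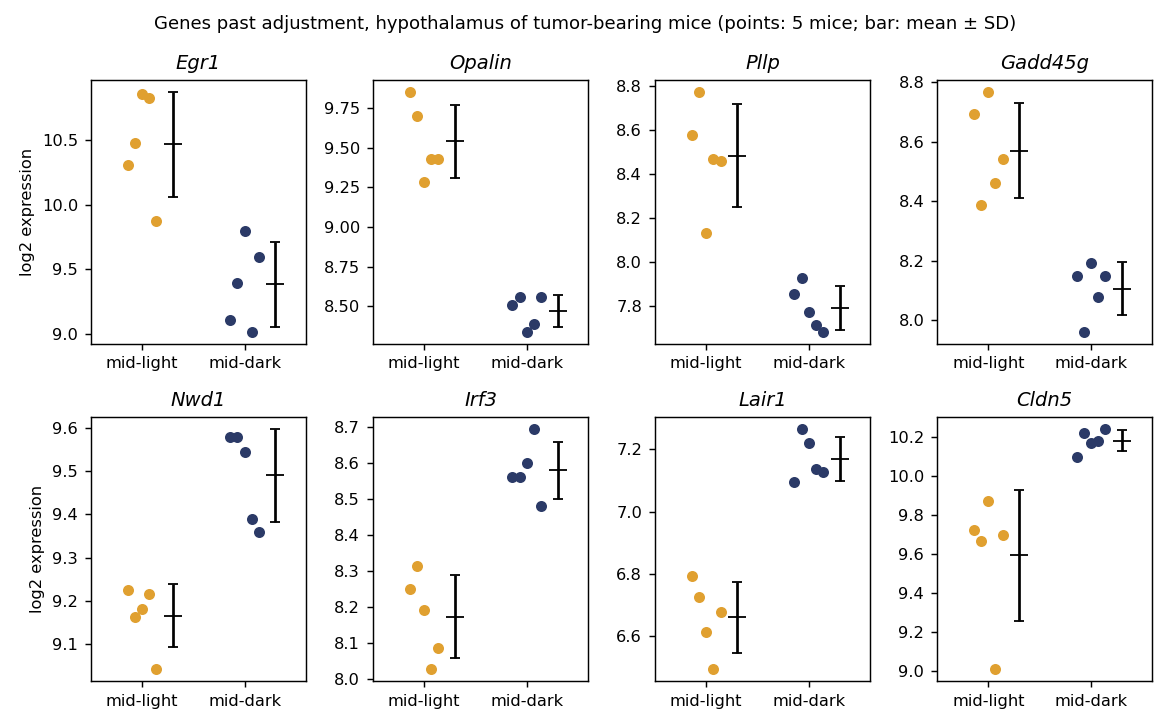
Each panel is 1 of the 8 genes past adjustment, with log2 expression on a vertical axis of its own range that does not start at 0. Points are the 5 tumor-bearing mice of each phase, and bars are the mean ± SD. The phases do not overlap in any panel, and 1 mid-light mouse lies well below the others for Cldn5.

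Egr1, an immediate early gene that neurons switch on within minutes of stimulation, had 9.11, 9.39, 9.80, 9.02 and 9.60 at mid-dark, against 10.31, 10.48, 10.86, 10.83 and 9.87 at mid-light. Mouse 29 was the lowest at mid-light and mouse 11 the highest at mid-dark, and these values lay close together. The difference was -1.09 (standard error 0.19, 95% interval -1.50 to -0.68, limma adjusted p = 0.00578), so the level in the rest phase was 2.13-fold that in the active phase. In the fit of the 10 samples alone the same difference had an adjusted p of 0.0534.

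Fos, the immediate early gene used most often to map neuronal activity, had 8.87, 9.65, 9.53, 8.53 and 9.73 at mid-dark, against 10.20, 10.10, 10.34, 9.99 and 8.88 at mid-light. The phases overlapped because of mouse 29, whose Fos was below that of 3 mid-dark mice. Fos differed by -0.64 (limma unadjusted p = 0.0419, adjusted p = 0.461), and without mouse 29 by -0.89 (adjusted p = 0.130).

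Of the 10 immediate early and activity genes, 3 were lower at the unadjusted threshold and none was higher, against 4.68% and 5.06% of all panel genes. The list median was -0.16, and in vehicle-injected mice the list median was 0.11. The third lower gene in tumor-bearing mice was Maff, a small Maf transcription factor, at 5.85 to 6.15 at mid-dark and 6.08 to 6.42 at mid-light (difference -0.31, limma adjusted p = 0.158). Arc, a synaptic immediate early gene, did not share this pattern, with a difference of -0.02 and a 95% interval of -0.20 to 0.16. The differences of Jun (0.10), Homer1 (0.05) and Bdnf (0.15) were slightly above 0.

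Markers of neighbouring brain areas were read beside these genes, since Egr1 was at 9.93 to 11.55 in the hippocampus of the same mice. Slc17a7 in the hypothalamus samples was 6.81 ± 1.56 at mid-dark and 6.90 ± 1.20 at mid-light, a difference of -0.09 with a 95% interval of -1.70 to 1.52, and Slc17a6 differed by -0.02. Among the 8 markers of brain area, Dlx1, a transcription factor of GABAergic neurons, was higher at mid-dark by 0.45 (limma adjusted p = 0.376) and the extracellular matrix protein Reln by 0.35 (adjusted p = 0.37), with a list median of 0.16. What these markers had to do with Egr1 and Fos was not tested.

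**Figure D3:**
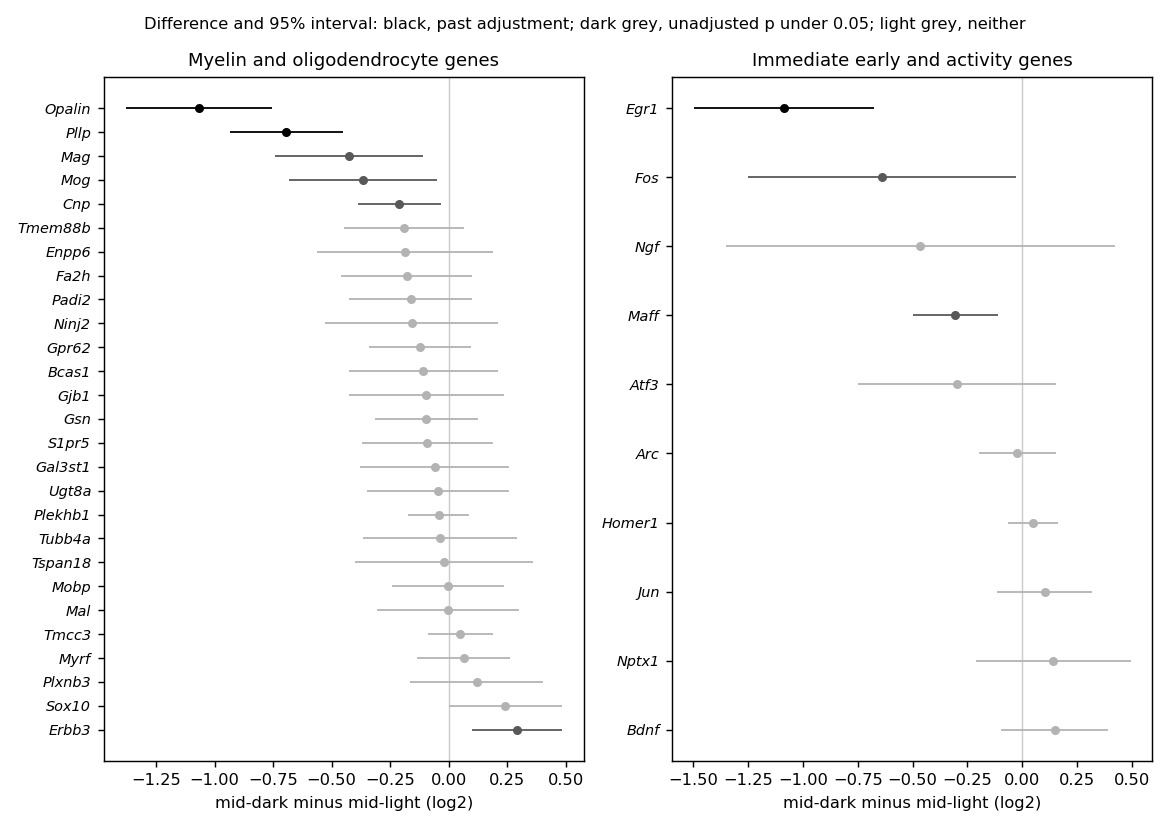
Points are mid-dark minus mid-light differences (log2) and bars their 95% intervals in the hypothalamus of tumor-bearing mice, for 27 of the 28 myelin and oligodendrocyte genes (left) and the 10 immediate early and activity genes (right). Black marks genes past adjustment (Opalin, Pllp, Egr1), dark grey those with an unadjusted p under 0.05, and light grey the rest. Most myelin genes lie below 0 with intervals that include it.

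Gadd45g, a growth arrest and DNA damage protein induced by stress and by neuronal activity, had 8.15, 7.96, 8.19, 8.08 and 8.15 at mid-dark, against 8.69, 8.39, 8.77, 8.46 and 8.54 at mid-light. No mid-dark mouse reached the lowest mid-light mouse. The difference was -0.46 (standard error 0.08, limma adjusted p = 0.00368), or 1.38-fold. Of the 23 Bcl2 family genes and p53 targets, 2 were lower and 1 higher at the unadjusted threshold, against 4.68% and 5.06% of all panel genes. The list median was -0.03, and Trp53, the p53 gene itself, had the smallest p. Trp53 was at 7.41 to 7.63 at mid-dark and 7.76 to 7.91 at mid-light, without overlap, and its difference of -0.25 had an adjusted p of 0.0825.

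Among the genes that were higher at mid-dark, Lair1 had the smallest p value of the panel. Its values were 7.09, 7.27, 7.22, 7.14 and 7.13 at mid-dark, against 6.79, 6.73, 6.61, 6.49 and 6.67 at mid-light. The phases were separate with little spread within each, and the difference was 0.51 (standard error 0.06, 95% interval 0.38 to 0.65, limma adjusted p = 0.000582), or 1.42-fold.

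Lair1 is carried by microglia and by immune cells that enter from blood, and both groups were read from lists. Homeostatic microglia genes (14 measured) had a median of 0.00, with 3 higher and 1 lower at the unadjusted threshold, against 5.06% and 4.68% of all panel genes. The 3 were the transcription factor Irf8 (0.33, no overlap between phases, limma adjusted p = 0.156), the microglial transcription factor Sall1 (0.20, adjusted p = 0.263) and the receptor Gpr34 (0.25, adjusted p = 0.322). The fructose transporter Slc2a5 was the lower one, at 6.01 to 6.23 at mid-dark and 6.28 to 6.67 at mid-light (difference -0.33, adjusted p = 0.0997). Tmem119 (0.02), P2ry12 (-0.07) and Cx3cr1 (0.03), which define microglia, had small differences. The 14 genes of activated microglia had a median of 0.04 with none past the unadjusted threshold in either direction, and Cd68, a lysosomal protein, had the smallest p (difference -0.18, adjusted p = 0.64).

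Markers of blood-borne immune cells were near the lower end of the assay, with list means of 3.82 to 4.06 at mid-dark and 3.82 to 4.20 at mid-light. Of the 33 measured, Csf3r, the granulocyte colony-stimulating factor receptor, was higher (0.39) and Cd3e, part of the T cell receptor, lower (-0.62) at the unadjusted threshold. Neither passed adjustment (limma adjusted p = 0.368 and 0.379). The list median was -0.10, and what a change of cell number had to do with Lair1 was not tested.

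Irf3 had 8.56, 8.56, 8.60, 8.69 and 8.48 at mid-dark, against 8.25, 8.31, 8.19, 8.03 and 8.09 at mid-light. The phases did not overlap, and the difference was 0.41 (standard error 0.06, limma adjusted p = 0.00302), or 1.32-fold. It was the 1 gene higher at the unadjusted threshold among 24 interferon receptors, factors and induced genes, 17 of which had a lower mean at mid-dark (median -0.04). Ddx58, the RNA sensor RIG-I, was lower (-0.22, limma unadjusted p = 0.0281), and the interferon-induced genes Irf7 (-0.04) and Rsad2 (-0.09) had small differences.

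Nwd1 had 9.58, 9.58, 9.54, 9.39 and 9.36 at mid-dark, against 9.22, 9.16, 9.18, 9.22 and 9.04 at mid-light. The phases were separate, and the difference was 0.32 (standard error 0.07, limma adjusted p = 0.0194). Its call was lost without mouse 3, 7, 11 or 29, with adjusted p values of 0.0757, 0.0751, 0.0701 and 0.0604.

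Cldn5 had 10.10, 10.22, 10.17, 10.18 and 10.24 at mid-dark, a narrow range, and 9.72, 9.67, 9.87, 9.01 and 9.70 at mid-light. Mouse 13 was far below the other mid-light mice. The difference was 0.59 (standard error 0.13, limma adjusted p = 0.0414), or 1.5-fold, and without mouse 13 it was 0.44 with an adjusted p of 0.0151. Its call was lost when any one of the mid-dark mice 3, 7, 11, 19 or 23, the mid-light mice 5 or 29, or the vehicle mice 4, 22 or 28 was left out, with adjusted p values up to 0.107, while the difference stayed between 0.57 and 0.61.

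No other endothelial gene was higher at the unadjusted threshold, at which 5.06% of all panel genes were higher and 4.68% lower. Of the 14 measured, 2 were lower at the unadjusted threshold, the adhesion molecule Icam2 (-0.23, no overlap between phases, limma adjusted p = 0.114) and the nitric oxide synthase trafficking protein Nostrin (-0.26, adjusted p = 0.31). The median was 0.04, and Pecam1 (0.08), Slc2a1 (0.01), the glucose transporter of the blood-brain barrier, and Esam (-0.04) had small differences.

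In vehicle-injected mice, other animals collected at the same times, 2 genes passed adjustment in the hypothalamus (0.26%), Slc2a5 and Opalin. Of the 8 genes of the tumor-bearing mice, 7 had the same sign there and 1, Opalin, passed adjustment. The 3 mid-dark and 4 mid-light mice did not overlap for 5 of the 8, against 61 of all 770 genes (7.92%). The difference of Opalin was -1.02 in vehicle-injected mice (limma adjusted p = 0.0133), that of Pllp -0.61 and that of Egr1 -0.98 (adjusted p = 0.0958 for each), close to the values in tumor-bearing mice. Irf3 (0.33) and Nwd1 (0.25) were also near.

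Gadd45g, Lair1 and Cldn5 had smaller differences or the other sign in vehicle-injected mice. Gadd45g in vehicle-injected mice was 8.41, 8.39 and 8.29 at mid-dark, against 8.44, 8.15, 8.30 and 8.33 at mid-light, so the phases overlapped, with a difference of 0.06. Lair1 was 6.95, 7.04 and 7.04 at mid-dark, against 6.87, 6.99, 6.75 and 6.82 at mid-light, a difference of 0.15. Cldn5 was 10.05, 10.30 and 10.03 at mid-dark, against 10.12, 9.79, 10.02 and 9.75 at mid-light, and its phases overlapped, with a difference of 0.21. The tumor minus vehicle difference between these differences was -0.52 for Gadd45g (standard error 0.12, limma unadjusted p = 0.000632, adjusted p = 0.487), the smallest p of that test, and 0.36 for Lair1 (standard error 0.10, unadjusted p = 0.0026, adjusted p = 1). For Cldn5 it was 0.38 (standard error 0.21, limma unadjusted p = 0.0832, adjusted p = 1).

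No gene passed adjustment in this limma test of a different phase effect with and without tumor (0% of 770), 20 had an unadjusted limma p under 0.05, and 19 had an ordinary one. The intervals for the 6 genes other than Gadd45g and Lair1 included 0, from -0.53 to 0.45 for Opalin and from -0.06 to 0.82 for Cldn5. Their width does not show that the phase effects were alike. These genes had been chosen by their difference in the tumor hypothalamus, which also enters this test. That choice tends to inflate their values here, so their intervals and unadjusted p values are no independent test. Of the 75 genes at an unadjusted limma p under 0.05 in tumor-bearing mice, 61 (81.3%) had the same sign in vehicle-injected mice, against 61.9% of all 770 genes.

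**Figure D4:**
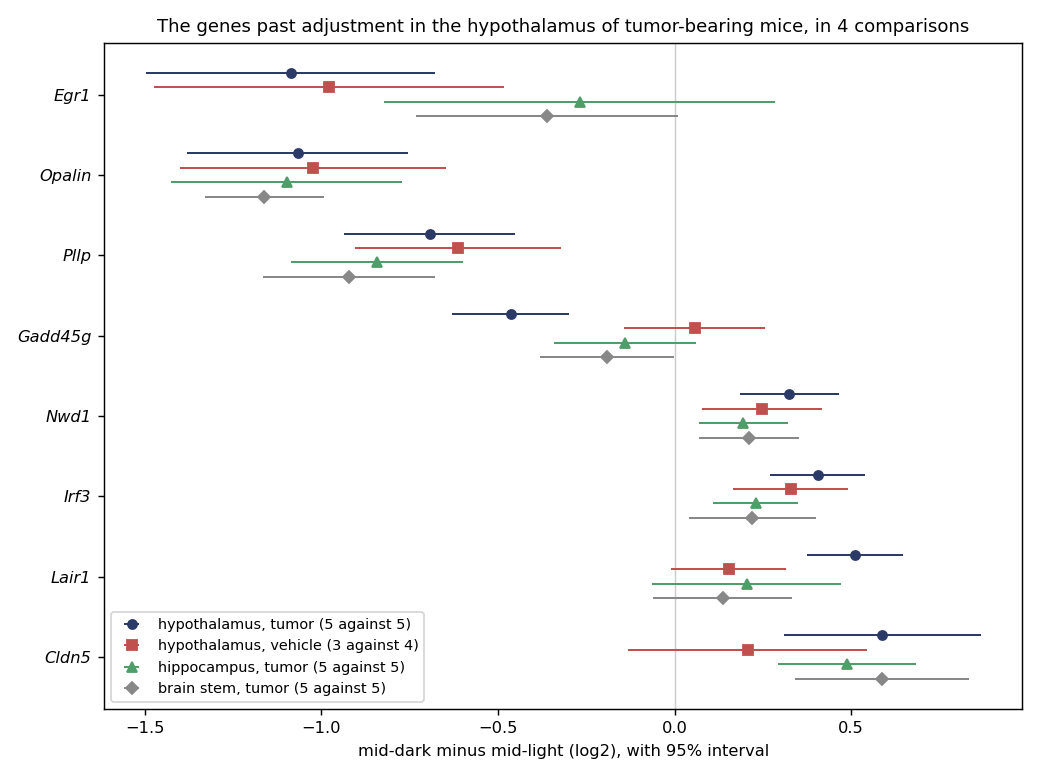
Mid-dark minus mid-light differences (log2, horizontal axis) with 95% intervals for the 8 genes, in the hypothalamus of tumor-bearing and vehicle-injected mice and in the hippocampus and brain stem of tumor-bearing mice. All but Gadd45g lie on the same side of 0 in the 4 comparisons. The values of Opalin and Pllp lie close together, and those of Egr1, Gadd45g and Lair1 are farthest from 0 in the tumor hypothalamus, where the genes were chosen.

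The hippocampus and brain stem came from the same tumor-bearing mice. There 8 of 769 genes (1.04%) and 6 of 769 (0.78%) passed adjustment between the phases, Opalin, Pllp, Cldn5 and Calr among them in both. Of the myelin list, Mag, Cnp and Fa2h also passed in hippocampus and Mog in brain stem. Calr, Mag, Cnp and Mog did not pass in hypothalamus. The difference of Opalin was -1.10 in hippocampus and -1.16 in brain stem, that of Pllp -0.84 and -0.92, and that of Cldn5 0.49 and 0.59. Egr1 had -0.27 in hippocampus and -0.36 in brain stem, Gadd45g -0.14 and -0.19, and Lair1 0.20 and 0.14.

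In the model with the mouse as a block, no gene had an adjusted limma p under 0.05 for a phase effect that differed between hypothalamus and hippocampus (0% of 770, with 45 at an unadjusted limma p and 44 at an ordinary p under 0.05) or between hypothalamus and brain stem (0%, with 35 by both). The hypothalamus minus hippocampus value was -0.82 for Egr1 (95% interval -1.47 to -0.16, limma unadjusted p = 0.0172, adjusted p = 0.578), 0.31 for Lair1 and -0.32 for Gadd45g (adjusted p = 0.603 and 0.564). Against brain stem it was -0.73 for Egr1, 0.37 for Lair1 and -0.27 for Gadd45g. Egr1, Lair1 and Gadd45g had been chosen by their difference in the tumor hypothalamus, which also enters these values and tends to inflate them. Their intervals and unadjusted p values are therefore no independent test. The smallest p values were those of Tmcc3, an oligodendrocyte gene of the endoplasmic reticulum, against hippocampus (0.28, adjusted p = 0.314), and of Kif2c, a mitotic kinesin that was near the lower end of the assay, against brain stem (-1.44, adjusted p = 0.94).

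Below the threshold of adjustment, the next genes by p value were Map2k4, a kinase upstream of JNK, Tmc7, a membrane channel-like protein, and F3, tissue factor. Map2k4 was at 12.32 to 12.42 at mid-dark and 12.09 to 12.27 at mid-light, without overlap, a difference of 0.20 (limma adjusted p = 0.0656). Tmc7 differed by 0.32, also without overlap, and F3 by -0.34 with mouse 19 at mid-dark above mouse 5 at mid-light (adjusted p = 0.0777 for both).

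Hormone and heat responses cycle with the rest and activity rhythm. Of 5 measured glucocorticoid-induced genes, 2 were lower at mid-dark at the unadjusted threshold, against 4.68% of all panel genes. The list median was -0.05, and in vehicle-injected mice the list median was 0.20. Nfkbia, the inhibitor of NF-kB and a glucocorticoid target, had 7.63, 7.60, 7.36, 7.61 and 7.48 at mid-dark, against 7.95, 7.71, 7.86, 8.19 and 7.84 at mid-light. The phases did not overlap, and the difference was -0.37 (limma adjusted p = 0.156). The second was the sulfated steroid transporter Slc10a6, near the lower end of the assay (-0.52, adjusted p = 0.37). Fkbp5, the glucocorticoid receptor chaperone, differed by -0.01 with a 95% interval of -0.33 to 0.31, and ranged from 7.45 to 8.49 among mid-light mice.

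All 4 measured chaperone and heat-inducible genes had a higher mean at mid-dark, against 405 of all 770 panel genes, with a list median of 0.11. At the unadjusted threshold 2 were higher, against 5.06% of all panel genes. Hspb1, a small heat shock protein, was at 7.87 to 8.48 at mid-dark and 7.24 to 8.22 at mid-light, with mouse 9 the high one (difference 0.49, limma adjusted p = 0.31). In vehicle-injected mice its difference was 0.80 (adjusted p = 0.164). Calr, the calcium-binding chaperone calreticulin, differed by 0.13 (adjusted p = 0.37).

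Of the 12 interleukin-1 family genes and receptors, 3 were higher at mid-dark at the unadjusted threshold and none lower. The shares of all panel genes were 5.06% and 4.68%, and the list median was 0.04. Il1a had 5.20, 5.29, 5.09, 5.56 and 5.13 at mid-dark, against 4.08, 4.41, 5.34, 4.56 and 5.01 at mid-light (difference 0.57, limma adjusted p = 0.366). Il1b had 4.66, 4.73, 4.01, 4.55 and 4.22 at mid-dark, against 3.35, 3.91, 4.14, 4.29 and 4.15 at mid-light (0.47, adjusted p = 0.345). Both cytokines overlapped between phases and were low, and the receptor adaptor Myd88 differed by 0.22 (adjusted p = 0.419).

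Among 12 NF-kB genes, Ikbkb (0.14) and Nfkb2 (0.44) were higher and Nfkbia lower at the unadjusted threshold. The shares of all panel genes were 5.06% and 4.68%, and the list median was -0.01. Lcn2, an acute-phase iron-binding protein, varied widely between mice, at 6.39 to 8.01 at mid-dark and 5.22 to 8.36 at mid-light, and its difference of 0.62 had a 95% interval of -0.68 to 1.92. Leaving out 1 mid-light mouse moved it to 1.05 (mouse 9), 0.96 (mouse 13), 0.39 (mouse 5) or 0.27 (mouse 29). None of the 9 acute-phase and gp130 genes passed the unadjusted threshold (median 0.00, smallest p for Il6ra, -0.20). Of 10 complement genes, C6, near the lower end of the assay, was higher by 0.79 (limma adjusted p = 0.37), with a median of 0.08.

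Few members of the neuronal and astrocyte lists passed the unadjusted threshold. Of 29 synaptic and neuronal genes, the glutamate receptor subunit Gria2 was higher (0.17, limma adjusted p = 0.442) and none was lower at the unadjusted threshold, with a median of 0.02. Of 13 astrocyte genes, the phosphodiesterase Gdpd2 was lower (-0.30, adjusted p = 0.311), with a median of -0.02. Choroid plexus and ependymal genes were measured by Ttr (-0.14) and Trp73 (0.21), neither past the unadjusted threshold.

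The remaining lists were close to the panel as a whole. Of 58 chromatin modifiers, 3 were higher and 2 lower at the unadjusted threshold (median 0.02), among them Crebbp, a histone acetyltransferase and clock coactivator (0.15), and Brd2, a bromodomain protein (-0.13), both without overlap between phases, and the smallest p was that of Ezh1, a histone methyltransferase (-0.26, limma adjusted p = 0.158). Of 45 DNA repair and replication genes, 1 was higher and 2 lower (median 0.04), the lower ones being the replication helicase subunits Mcm5 (-0.36, adjusted p = 0.114) and Mcm6 (-0.47). Of 17 insulin, IGF and hypoxia genes, the receptor Igf1r was higher (0.17, adjusted p = 0.376), with a median of 0.02. Of 21 autophagy genes, the receptor Optn was lower (-0.14, adjusted p = 0.345), with a median of 0.03.

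Neither the 8 Nrf2 and antioxidant genes (median 0.00, Hmox1 with the smallest p at 0.08) nor the 8 ribosomal protein genes (median 0.00, Rpl36al with the smallest p at 0.11) held a gene past the unadjusted threshold. Of the 13 reference genes of the panel, Lars was lower (-0.18, limma adjusted p = 0.311), with a median of 0.05.

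**Figure D5:**
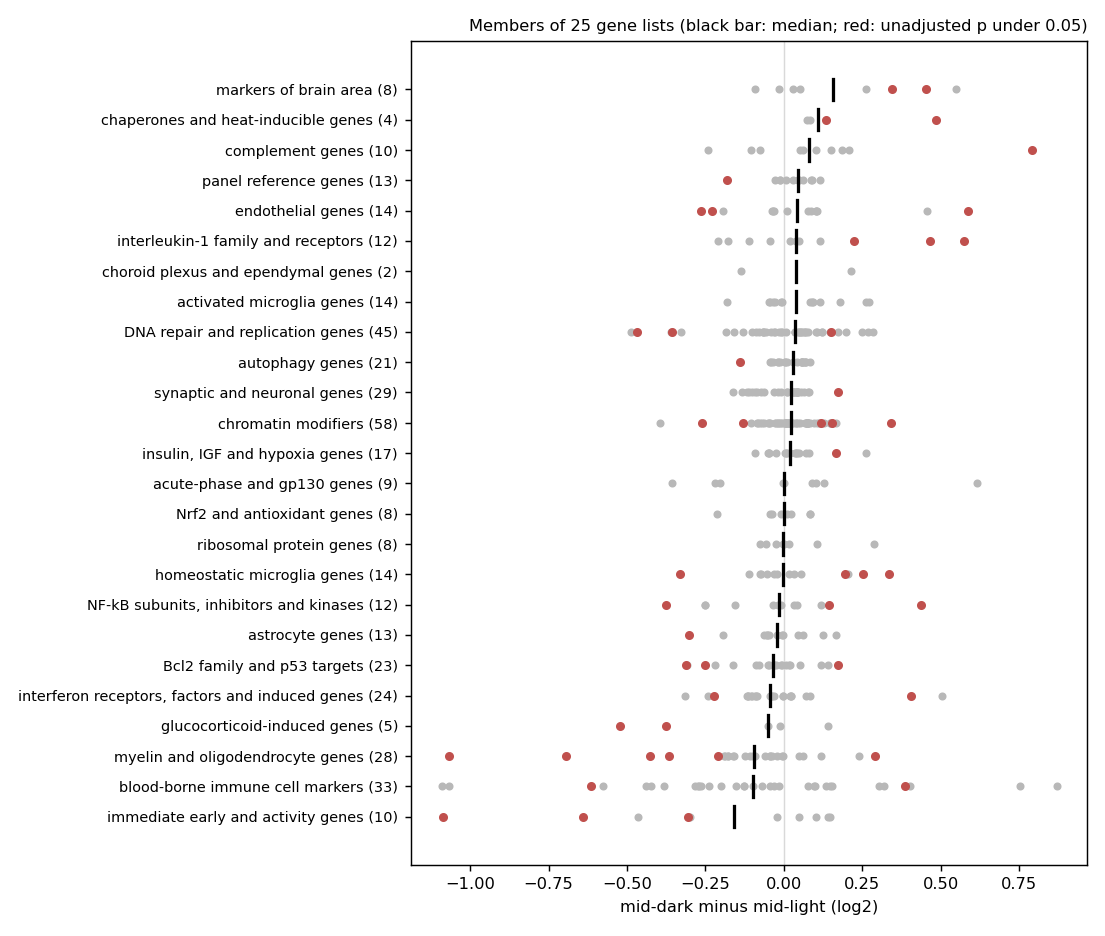
Mid-dark minus mid-light differences (log2, horizontal axis) of the members of 25 gene lists in the hypothalamus of tumor-bearing mice, with the number measured in brackets, a black bar at each median and red for an unadjusted limma p under 0.05. Medians run from -0.16 for the immediate early and activity genes to 0.16 for the markers of brain area.

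RNA yield and purity were compared because they could move with the phases. RNA concentration was 602.5 ± 97.2 ng per µl at mid-dark and 734.9 ± 194 at mid-light (n = 5 mice, SD), with a difference of -132.4 (exact permutation test, two-sided, p = 0.222, Benjamini-Hochberg adjusted over 3 measures p = 0.667, where the smallest p that 252 assignments allow is 0.00794). Without mouse 29 the difference was -209 (exact permutation test, p = 0.0238). The 260/280 absorbance ratio was 1.96 in both phases (exact permutation test, p = 1), and the 260/230 ratio was 1.81 ± 0.4 and 1.73 ± 0.726 (exact permutation test, p = 0.897, adjusted p = 1), with mouse 1 at 0.44 and mouse 7 at 1.14. With RNA concentration in the model, 7 of the 8 genes passed and Cldn5 did not, and with the 260/230 ratio all 8 passed.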

How the data were processed

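RNA of 60 brain samples was assayed on the nanoString nCounter Mouse Neuroinflammation Panel, of which 56 had values analysed here. The deposited log2 values were made by the authors from counts by background subtraction with negative controls, scaling to positive controls and codeset content in nSolver and quantile normalization in Partek. No raw counts entered the work. Depth is therefore unknown, and precision rests on how many mice there were. Quantile normalization fixes the distribution of each sample, so differences are relative to the panel.

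A limma 3.58.1 model (R 4.3.3) of 4 group means (tumor or vehicle, dark or light) was fitted to the 17 hypothalamus samples, with Benjamini-Hochberg adjustment over 770 genes. The paper compared tumor-bearing with vehicle-injected mice by an ordinary test, with an unadjusted p cutoff among its filters. The ordinary unadjusted p given beside is that of the 4-group model for mid-dark minus mid-light, which the paper did not report for tumor-bearing mice alone. Differences between regions used the 30 samples of the 10 tumor-bearing mice with the mouse as a block, since same-numbered samples come from the same animal. Genes with 1 value throughout were not tested, and a few panel genes are not reported here by name. RNA measures were compared with exact permutation tests (Python 3.11.15).

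Named genes were the 12 with the smallest p, the 4 largest rises and falls at a mean log2 of at least 5, the gene with the smallest p of each of 26 lists and of each test between regions or tumor states, and Fkbp5, Nfkbia, Arc, Fos, Hspb1, Opalin, Pllp, Lcn2, Il1b, Ttr and Timeless. Other list members and the motifs were added after their values or letters were seen, and the members and lists were chosen with earlier results of these data known. For the tumor hypothalamus comparison, data were simulated in which 200 of 770 genes changed by the same amount. A change of 1 on the log2 scale passed for 95.5% of these genes and a change of 0.3 for 49%. Of the unchanged genes, 1.93% and 0.877% passed. In the real data 8 genes passed, and adjustment is easier to pass when more genes change. These shares may therefore overstate detection here. The cartridge and run day of each sample are not given in the sources used here.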

Additional observations from a re-analysis of the deposited data

Results flagged for a closer look

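Among 84 sets of 5 values (the named genes and RNA measures in each phase of tumor hypothalamus), 5 held a mouse whose gap to its nearest neighbour took up an unusually large part of the range. Chance alone gives this in about 1 of 20 sets. Cldn5 in mid-light mouse 13 was 9.01, with the others at 9.67 to 9.87. Fos in mid-light mouse 29 was 8.88, with the others at 9.99 to 10.34. Fkbp5 in mid-dark mouse 7 was 8.15, with the others at 7.95 to 7.96, and Trp53 in the same mouse was 7.41, with the others at 7.60 to 7.63. Without mouse 7 the Trp53 difference was -0.21 (limma adjusted p = 0.211). The 260/230 ratio of mid-light mouse 1 was 0.44, with the others at 1.94 to 2.14.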

How the results depend on the processing

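The 8 genes past adjustment became 5 when only the 10 tumor-bearing samples were fitted and 6 to 12 under the other settings, and leaving out each mouse in turn gave 6 to 11. Lair1, Opalin, Irf3, Pllp and Gadd45g passed under all 25 alternatives of limma's test, Egr1 was lost in the fit of the 10 samples alone, Nwd1 under 6 alternatives and Cldn5 under 13. Ordinary p values with the same adjustment, not among those 25, gave 9 genes, 7 of them among the 8, with Cldn5 lost (adjusted p = 0.0596). None of the 8 changed sign. Subtracting reference gene means gave 6 genes and moved the median of all genes to -0.02. Genes at an unadjusted p under 0.05 numbered 60 to 85. The test between tumor and vehicle had no gene past adjustment under any alternative run. Between hypothalamus and hippocampus, leaving out each mouse gave 0 to 1 genes. The 1 was Uty, a Y-linked gene in these female mice, without mouse 19 (1.88, limma adjusted p = 0.0345), chosen after its value was seen. The fits without the mouse block gave 0 genes for either pair of regions (smallest adjusted p = 0.551 and 0.998), so the pairing changed no call. Leaving out each mouse, the RNA concentration difference was -209 to -91.1 ng per µl, with an exact permutation p under the threshold without mouse 29 alone, that of the 260/280 ratio -0.021 to 0.024 and that of the 260/230 ratio -0.247 to 0.243. Of the other named genes, 3 with differences near 0 (Timeless, Fkbp5, Arc) changed sign in some settings. Genes with a mean log2 value under 5 (18.3%) lie at the low end of the assay.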

Other observations

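Fabp5, a fatty acid-binding protein, and Hcar2, a hydroxycarboxylic acid receptor, belonged to none of the lists. Fabp5 was at 11.67 to 11.88 at mid-dark and 11.93 to 12.32 at mid-light, without overlap (difference -0.32, limma adjusted p = 0.109), and it passed adjustment without mouse 1 and with trend and robust moderation. Hcar2 was at 4.60 to 5.05 at mid-dark and 3.35 to 4.76 at mid-light, where mouse 29 was the high one (difference 0.78, adjusted p = 0.137), and it passed without mouse 29. In vehicle-injected mice the difference was -0.16 for Fabp5 and -0.12 for Hcar2. Both were chosen after their values were seen.

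Total tumor mass was 3.24 to 5.00 g in the mid-dark mice and 2.31 to 4.67 g in the mid-light mice whose hypothalamus was analysed, with mouse 29 the lowest of the 10.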
